A study of Mus musculus with 6 samples.

Results

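The mRNAs of the cytosolic ribosomal proteins were examined in articular cartilage of Parkin knockout (KO) and wildtype (WT) mice. A gene was a member when its name began with Rpl or Rps, unless the name began with Rps6k (the ribosomal protein S6 kinases) or contained -ps (the mark of a pseudogene). Of 34709 genes in the table, 93 matched, and the 91 whose level averaged 0.5 FPKM or more over the 6 libraries are described here. FPKM counts fragments per kilobase of a transcript, relative to the total of the library. Both groups were male littermates of 18 months, 3 libraries were labelled for each genotype, and neither group was given a treatment in the sources used here. The methods of the study gave no cell type for the knockout, and the labels did not say how many animals went into a library. KO replicates 2 and 3 were nearly identical over the members, with a median absolute difference of 0.033 on the log2 scale, against 0.112 to 0.697 for the other 14 pairs. Over all genes this difference was 0.086, against 0.190 to 0.352 for the other 14 pairs. KO replicates 2 and 3 were therefore averaged and counted as 1 sample, so that tests compared 2 KO samples with 3 WT samples. P-values measure only the spread between these samples. Values of the 3 libraries of a genotype are given in the order of their replicate numbers.

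A ribosome has a large subunit (60S), where peptide bonds are formed, and a small subunit (40S), where the mRNA is decoded. Proteins of the large subunit are named Rpl, those of the small subunit Rps, and each is encoded by its own gene and most are needed in equal number. The mRNAs of these genes typically begin with a C followed by a run of pyrimidines, the 5′ terminal oligopyrimidine (TOP) tract, through which growth signals of the mTORC1 kinase set their translation. In cartilage, chondrocytes make and secrete collagens and proteoglycans, which draws on this machinery.

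The members fell into 46 proteins of the 60S subunit, 31 proteins of the 40S subunit, 10 paralogs of these proteins and 4 further genes that the name rule took in. All 46 and 31 names listed for the subunits were found and passed the limit of 0.5 FPKM. The genes of the 77 subunit proteins lay on 19 chromosomes. Chromosome 7 held 14 of them, or 18.2%, whereas it held 7.41% of the 15373 genes tested. All 91 members overlapped the same gene in the GRCm38 annotation, and 78 had the same start and end.

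The TOP tract is the feature of sequence that these mRNAs are known for, so start sites were searched for it. RefSeq start windows (GRCm38.p6) were found for 67 of the 91 members, with 79 windows among them. A tract was taken as a C followed by at least 4 letters that are each C or T, read on the coding strand only. It began exactly at the annotated start in 15 of the 79 windows, or 19.0%, against 2.51% of all 32851 windows. Within 5 bases on either side of the start the shares were 41.8% and 18.3%. The following windows hold 10 bases before the start and 20 bases from it, with the tract in capitals. The first 5 are the genes named in the results that have the tract exactly at the start, and the other 3 have no tract within 5 bases.
Rpl28, a 60S protein, chr7:4792955-4792984, plus strand: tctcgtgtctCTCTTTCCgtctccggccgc
Rpl38, a 60S protein, chr11:114668570-114668599, plus strand: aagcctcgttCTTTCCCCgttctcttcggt
Rps27, a 40S protein, chr3:90213629-90213658, minus strand: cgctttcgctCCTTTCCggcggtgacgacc
Rps27rt, a copy of Rps27, chr9:114982720-114982749, minus strand: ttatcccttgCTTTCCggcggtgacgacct
Rpl32l, a further gene, chr10:20208429-20208458, plus strand: aaatgaccagCTTCTTCCTTggtgctgcct
Rplp0, a 60S protein, chr5:115559457-115559486, plus strand: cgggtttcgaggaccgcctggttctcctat
Rpl7l1, a paralog of Rpl7, chr17:46782637-46782666, minus strand: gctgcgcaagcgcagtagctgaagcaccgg
Rps19bp1, a further gene, chr15:80264287-80264316, minus strand: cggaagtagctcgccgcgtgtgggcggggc
The windows of Rps27 and Rps27rt share a run of 19 bases that begins inside the Rps27 tract. Annotated starts can lie some bases from the start used in a tissue, and a window without a match says only that these letters are not in it.

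The mRNAs of the subunit proteins were abundant and spread over a wide range. Their mean level over the 6 libraries had a median of 235.8 FPKM. The 10th and 90th percentiles were 92.0 and 477.0 FPKM. The 40S genes had a median of 286.4 FPKM and the 60S genes a median of 187.7 FPKM. Highest was Rplp1 (chr9:61913284-61914542), an acidic protein of the stalk that recruits translation factors to the 60S subunit, at a mean of 1153 FPKM. It was followed by Rps3a1, a 40S protein, at 1084 FPKM, and by Rplp0, the base of the same stalk, at 835.8 FPKM. Rps15, a 40S protein near the decoding site, had 770.3 FPKM, and the 60S proteins Rpl4 and Rpl19 had 566.5 and 566.1 FPKM. Lowest of the subunit genes was Rpl21 at 17.1 FPKM, 67.4 times below Rplp1. These levels need not be those of the proteins, and they rest on reads that can match more than 1 gene.

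To see how far reads could be shared, annotated transcripts were compared in runs of 75 bases. Of the 77 subunit genes, 75 had at least 1 run that also occurred in a transcript of another gene. The median share of such runs was 35.5% of the transcript, and in 25 of the 77 genes it was above 50%. Levels of single genes are thus uncertain wherever the counting split reads between a gene and its copies. For Rpl21 the level was 17.5, 17.97 and 13.3 FPKM in KO and 16.4, 20.4 and 17.05 FPKM in WT. Its 15 pseudogene rows together had a mean of 215.5 FPKM, so the functional gene held the smaller part of the summed level. Rpl17, a 60S protein at the exit tunnel, had 185.2, 82.3 and 85.8 FPKM in the KO libraries and 144.4, 228.5 and 95.2 FPKM in the WT libraries. WT replicate 3 was the lowest WT library for Rpl17 and the highest of all 6 for its 8 pseudogene rows, at 731.2 FPKM summed. Added together, Rpl17 and those rows gave 834.6, 592.2 and 589.0 FPKM in the KO libraries and 633.0, 858.7 and 826.4 FPKM in the WT libraries. The 2 families were singled out after their values were seen.

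Next, the genotypes were compared. No ribosomal protein mRNA was called in KO cartilage. At an adjusted p-value under 0.05 (quasi-likelihood test of edgeR, adjusted by Benjamini-Hochberg over all 15373 genes tested), 0 of 91 members were called, and the background was 0% of all genes. At an unadjusted p-value under 0.05 there were 0 of 91 members, against 13.7% of all genes. DESeq2 called 5.72% of all genes and limma on log2(FPKM + 1) called 0%, and each called 0 of 91 members. The smallest adjusted p-value of a member was 0.669. When the 6 libraries were taken as labelled, with KO replicates 2 and 3 as separate samples, edgeR called 3.71% of all genes and again 0 of 91 members, and at an unadjusted p-value under 0.05 it was 22.2% of all genes and 0 of 91 members.

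Differences were small, and their direction rested on single samples. Of the 91 members, 75 had a log2 difference (KO minus WT) below 0, or 82.4%, against 52.5% of all genes tested. The median log2 difference was −0.09 over the members and −0.02 over all genes. With the 6 libraries as labelled, 85 of 91 members were below 0 (53.1% of all genes), with a median of −0.18. The median was 0.09 without WT replicate 2, 0.18 without KO replicates 2 and 3, −0.39 without KO replicate 1 and −0.21 without WT replicate 1. In the fit of 5 samples the median was −0.09 for the 60S genes, of which 39 were below 0 and 7 above, and −0.08 for the 40S genes, of which 26 were below 0 and 5 above. Among the 77 subunit genes the log2 difference ran from −0.29 (Rps27) to 0.12 (Rpl28). Because members move together from library to library, these counts describe 5 samples and not 91 separate measurements. The 95% interval of the log2 difference lay between −1 and 1 for 72 of the 77 subunit genes and for 83 of the 91 members.

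**Figure D1:**
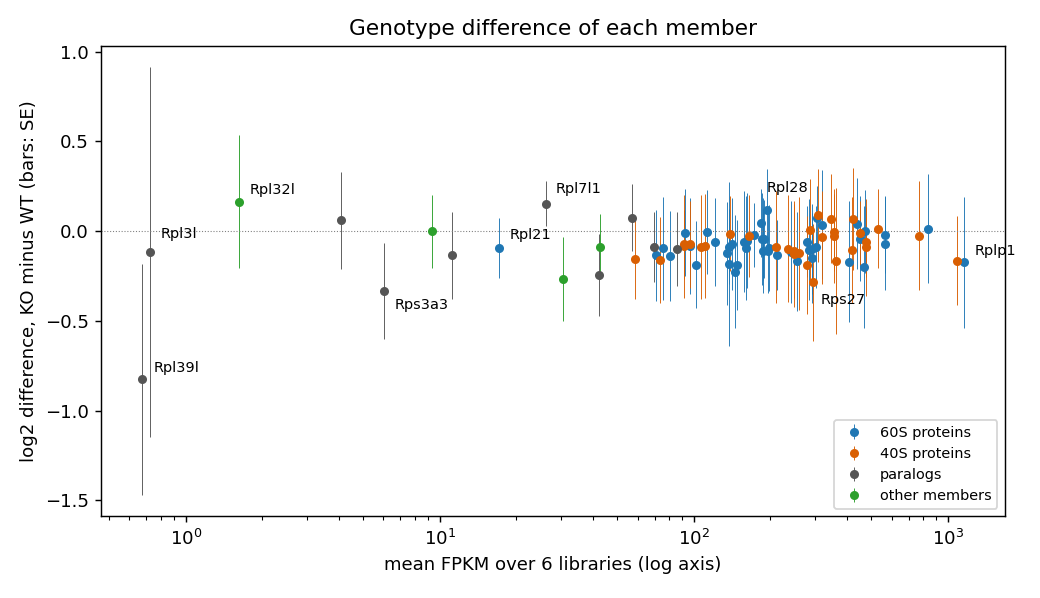
The log2 difference (KO minus WT, with bars of 1 SE) of each of the 91 members is plotted against its mean FPKM on a log axis, with 2 KO and 3 WT samples. The subunit genes lie between −0.29 and 0.12, and the widest bars belong to Rpl39l and Rpl3l at under 1 FPKM.

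The most abundant members illustrate the overlap of the groups. Rplp1 was at 1398, 838.7 and 838.7 FPKM in KO and at 856.8, 1680 and 1307 FPKM in WT. The lowest WT library was close to the lower KO sample, and the highest value was in WT replicate 2. The log2 difference was −0.17 ± 0.36 (SE, adjusted p = 0.913 by edgeR). Rps3a1 was at 1179, 887.0 and 899.7 FPKM in KO and 1057, 1326 and 1156 FPKM in WT, a log2 difference of −0.16 ± 0.25. Rplp0 was at 958.2, 740.7 and 750.8 FPKM in KO and 630.8, 1026 and 908.6 FPKM in WT. Its lowest value was in a WT library, and the log2 difference was 0.01 ± 0.30. Rps15 was at 961.6, 598.2 and 621.9 FPKM in KO and 628.7, 1004 and 807.4 FPKM in WT. Rpl4 was at 593.1, 526.4 and 541.7 FPKM in KO and 525.1, 619.6 and 592.9 FPKM in WT. Rpl19 was at 653.7, 476.8 and 466.1 FPKM in KO and 490.0, 703.1 and 606.6 FPKM in WT. For Rps15, Rpl4 and Rpl19 the log2 differences were −0.03 ± 0.30, −0.02 ± 0.22 and −0.07 ± 0.26, each below its own error.

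Of the subunit genes, those with the smallest p-values were Rps27, Rpl30 and Rpl38. Rps27, a zinc-finger protein of the 40S subunit, was at 363.7, 176.2 and 201.5 FPKM in KO and 298.9, 418.1 and 315.0 FPKM in WT. KO replicate 1 lay between WT libraries, whereas KO replicates 2 and 3 lay below all of them. The log2 difference was −0.29 ± 0.33 (adjusted p = 0.797 by edgeR). Rpl30, a 60S protein, was at 114.8, 80.02 and 78.3 FPKM in KO and 99.3, 130.2 and 107.3 FPKM in WT, with a log2 difference of −0.19 ± 0.24. Rpl38, a small 60S protein known from the patterning of the mouse skeleton, was at 169.0, 109.5 and 117.9 FPKM in KO and 141.8, 199.1 and 149.9 FPKM in WT. Its log2 difference was −0.19 ± 0.25, and the groups overlapped in the same way as for Rps27. Without KO replicates 2 and 3 the log2 differences of Rps27, Rpl30 and Rpl38 were 0.15, 0.11 and 0.12. At the other end were Rpl28 and Rps27a. Rpl28, a 60S protein, was at 228.9, 180.3 and 178.0 FPKM in KO and 157.0, 222.1 and 194.0 FPKM in WT, with a log2 difference of 0.12 ± 0.23. Rps27a, a 40S protein made as a fusion with ubiquitin, was at 383.5, 264.2 and 269.0 FPKM in KO and 256.9, 354.2 and 322.5 FPKM in WT. Its log2 difference was 0.09 ± 0.26, and it fell to −0.02 with the 6 libraries as labelled.

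Although the genotypes overlapped, the members did not vary independently. They rose and fell as a block between libraries of the same genotype. Values were set relative to the mean of the WT libraries on the scale of log2 CPM (counts relative to the library total, with TMM scaling between libraries). The median member stood at 0.20, −0.39 and −0.37 in KO and at −0.29, 0.30 and −0.00 in WT. Over all genes tested the median was −0.005, −0.02 and −0.03 in KO and 0.009, −0.007 and −0.0003 in WT. In KO replicate 1, 88 of 91 members were above 0, and in WT replicate 2, 90 of 91. In KO replicates 2 and 3, 88 and 89 of 91 were below 0, and in WT replicate 1, 89 of 91. The 60S and 40S genes had nearly the same medians, for example −0.29 and −0.32 in WT replicate 1 and 0.30 and 0.32 in WT replicate 2. The low libraries and the high libraries thus came from both genotypes.

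**Figure D2:**
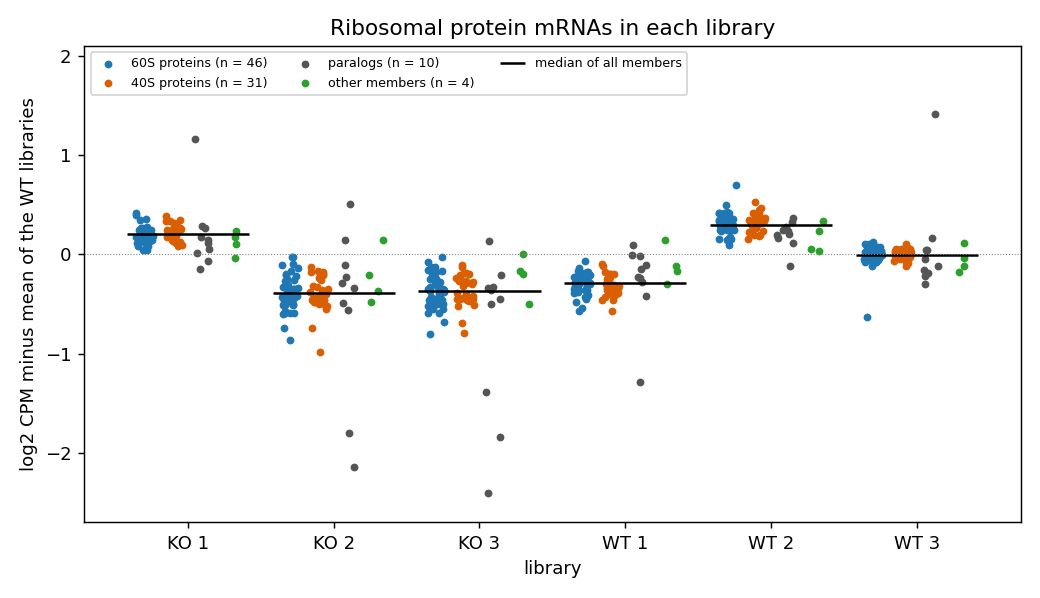
Each point is 1 of the 91 members in 1 library, as log2 CPM minus the mean of the 3 WT libraries, coloured by class, with a black line at the median of all members. Nearly all members are below 0 in KO replicates 2 and 3 and WT replicate 1 and above 0 in KO replicate 1 and WT replicate 2.

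This order was compared with that of other genes. KO replicates 2 and 3 and WT replicate 1 were the 3 lowest of the 6 libraries for 83 of 91 members (91.2%), and for 12.3% of all genes tested. It held for 75 of the 77 subunit genes. WT replicate 2 was the highest library for 78 of 91 members (85.7%), against 16.1% of all genes. KO replicate 1 was the highest for 11 members (12.1%), against 16.5% of all genes. The order was noticed in these data and is a description with no test. Over the 3 WT libraries alone, the members had a median SD of 0.30 on the log2 CPM scale, compared with 0.18 for all genes tested. For the subunit genes the highest FPKM of the 6 libraries was a median of 1.56 times the lowest, and from 1.14 times in Rpl10 to 2.78 times in Rpl17, which were named after their values were seen.

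Accordingly, the share of the transcriptome taken by these mRNAs differed more within genotypes than between them. Summed over the 91 members, FPKM made up 5.72%, 5.00% and 5.02% of the KO libraries. In the WT libraries the share was 4.97%, 6.40% and 5.49%. By this FPKM share the lowest and the highest library were both WT, and every KO library lay between them. The KO mean was 5.37% ± 0.50 (SD, n = 2) and the WT mean 5.62% ± 0.72 (SD, n = 3), a difference of −0.254 percentage points. It was 0.136 without WT replicate 2, 0.101 without KO replicates 2 and 3, −0.610 without KO replicate 1 and −0.580 without WT replicate 1. By counts the shares were 4.83%, 3.50% and 3.54% in KO and 3.72%, 5.35% and 4.46% in WT. Here KO replicates 2 and 3 lay below every WT library.

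**Figure D3:**
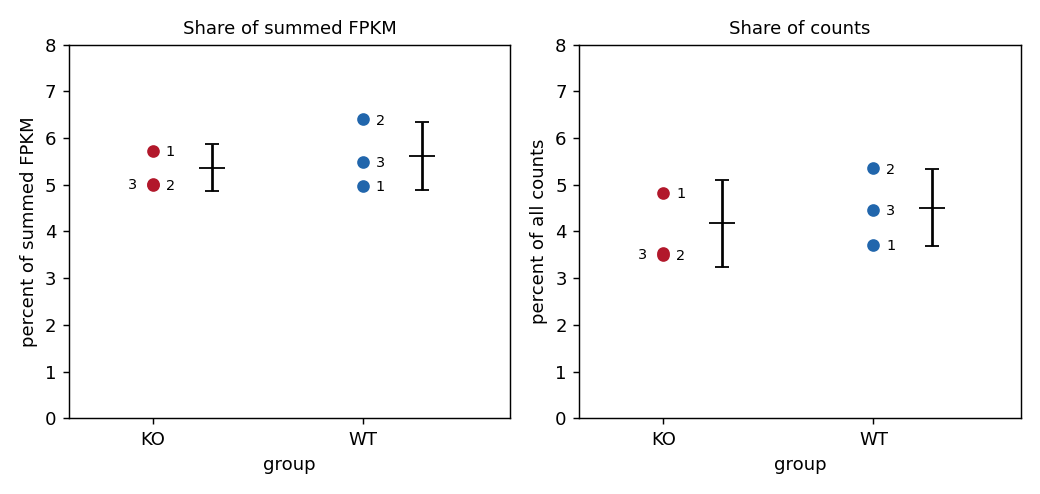
The share of all FPKM (left) and of all counts (right) taken by the 91 members is shown in percent for each library, with its replicate number, and the bar gives the mean ± SD of 2 KO and 3 WT samples, KO replicates 2 and 3 being averaged. The KO libraries run from 5.00% to 5.72% of FPKM and the WT libraries from 4.97% to 6.40%. By counts they run from 3.50% to 4.83% in KO and from 3.72% to 5.35% in WT.

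Several properties of the libraries moved with the block. Total counts were 52268311 and 52698599 in KO replicate 1 and WT replicate 2, where the block was high, and 57817677 to 63331135 in the libraries where it was low. WT replicate 3, between them in level, had 56555726. Transcript length, the median of which was 937 bases for the subunit genes and 2613 bases for all genes tested, also moved with it. Among the 1130 tested genes with over 600 and up to 1000 bases that were no members, the median stood at 0.15, −0.21 and −0.18 in KO and at −0.13, 0.16 and −0.02 in WT. Among the 4172 other genes of over 4000 bases it was −0.11, 0.09 and 0.10 in KO and 0.08, −0.09 and 0.01 in WT, of opposite sign in each library. The members with over 600 and up to 1000 bases numbered 35. Their medians were 0.19, −0.35 and −0.33 in KO and −0.29, 0.28 and −0.00 in WT. These medians lay farther from 0 than those of the other genes of over 600 and up to 1000 bases in 5 of 6 libraries. Members with over 1000 and up to 2000 bases were as far from 0 as those of over 600 and up to 1000 bases, at −0.36 in KO replicate 3 and 0.31 in WT replicate 2. The part of depth or length in the block was not tested.

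**Figure D4:**
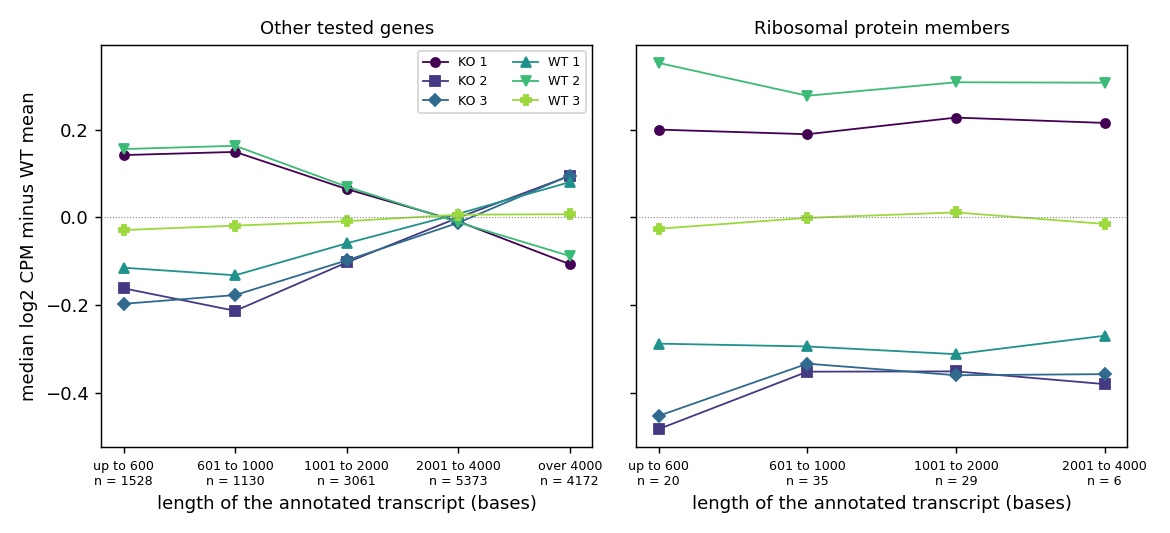
Median log2 CPM minus the WT mean is plotted by length of the annotated transcript for tested genes that are no members (left) and for members (right, length classes with at least 6 genes), with 1 line per library. Other genes of up to 1000 bases have the same sign as members of that length in each library, and those of over 4000 bases have the opposite sign.

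Marker levels of several cell types differed between the libraries too. Chondrocyte markers were present, 13 of 16 above the limit and none at 0 in every library, with summed levels of 677.8 to 1500 FPKM in KO and 670.1 to 893.1 FPKM in WT. They had medians of 0.62, −0.48 and −0.33 in KO and −0.25, 0.24 and 0.01 in WT, nearly the order of the ribosomal protein genes. Erythroid markers summed to 25439 to 61339 FPKM in KO and 72600 to 109665 FPKM in WT, far above the chondrocyte markers. Neutrophil markers summed to 52932 to 63962 FPKM in KO and 27904 to 44875 FPKM in WT. All 15 B cell markers and 13 erythroid markers had a log2 difference (KO minus WT) below 0, and all 14 neutrophil markers had one above 0. Of all genes tested, 52.5% were below 0, and edgeR called none of these markers. All 6 adipocyte and 8 endothelial markers tested were also below 0. Chondrocyte markers went both ways, with 8 above 0 and 5 below. In such bulk tissue, fewer cells of a type and less RNA per cell cannot be told apart. The part of these cell types in the levels of ribosomal protein mRNA was not tested.

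Paralogs are alternative versions of a ribosomal protein, some of them used in particular tissues. Rpl36al was the only one of the 10 above its parent gene. It was at 95.3, 73.8 and 72.5 FPKM in KO and 80.2, 106.1 and 88.5 FPKM in WT, between 101% and 118% of Rpl36a in all 6 libraries. KO minus WT was −0.10 ± 0.20 on the log2 scale. Of the 75-base runs of Rpl36a, 84.6% also occur in other genes, against 23.3% for Rpl36al. The part of shared reads in the ratio of Rpl36al to Rpl36a was not tested. Rpl22l1, the paralog of the RNA-binding 60S protein Rpl22, was at 44.6, 34.1 and 33.9 FPKM in KO and 40.6, 57.8 and 43.2 FPKM in WT. It stood at 53.7% to 62.8% of Rpl22, and its log2 difference was −0.24 ± 0.23 (adjusted p = 0.737 by edgeR). Rps27l, a paralog of Rps27 known as a p53 target, was at 74.9, 63.9 and 59.3 FPKM in KO and 62.1, 83.1 and 75.7 FPKM in WT, with a log2 difference of −0.09 ± 0.19. The mean of Rps4l was 4.09 FPKM, or 0.859% of the X-linked Rps4x, with a log2 difference of 0.06 ± 0.27.

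Rpl7l1 (chr17:46773907-46782656), a relative of the 60S protein Rpl7, departed from the block. Its level was 26.6, 28.2 and 27.9 FPKM in KO and 23.0, 25.9 and 25.7 FPKM in WT. All KO libraries were above all WT libraries. It was the single member of 91 (1.1%) whose groups did not overlap, against 30% of all genes tested. The log2 difference was 0.15 ± 0.13, with a 95% interval from −0.15 to 0.45 (adjusted p = 0.695 by edgeR). KO replicates 2 and 3, the lowest libraries for most members, had the highest FPKM for Rpl7l1, which therefore ran from 7.14% of Rpl7 in WT replicate 2 to 11.7% in KO replicate 2. On the scale of log2 CPM relative to the WT mean, KO replicate 1 was the highest library for Rpl7l1. The 3 KO libraries stood at 0.17, 0.15 and 0.13.

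The lowest paralogs gave the widest errors. Rpl39l, a paralog of Rpl39 that is best known from testis, was the member just inside the limit, at a mean of 0.676 FPKM. It was at 0.831, 0.182 and 0.236 FPKM in KO and 0.683, 1.07 and 1.05 FPKM in WT, from 11 to 56 counts per library. KO replicate 1 lay within the WT range and KO replicates 2 and 3 lay below it. Its log2 difference of −0.83 ± 0.64 was the lowest of all members and had the smallest p-value (adjusted p = 0.669 by edgeR). It fell to −2.24 without KO replicate 1, and was −0.10 without KO replicates 2 and 3. Rpl3l replaces Rpl3 in muscle. It was at 1.42, 0.177 and 0.106 FPKM in KO and 0.260, 0.578 and 1.80 FPKM in WT, with a log2 difference of −0.12 ± 1.03. The 11 skeletal muscle markers summed to 221.6, 5.83 and 4.92 FPKM in KO and 45.2, 82.3 and 401.1 FPKM in WT, which is the same order of the 6 libraries as that of Rpl3l. The part of muscle in the level of Rpl3l was not tested.

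Copies of Rps27 and Rps3a1 share long runs of sequence with their parents or with each other, so reads may be split between these genes. Rps27rt (chr9:114982366-114982739) shares 90.3% of its 75-base runs with Rps27. It was at 65.6, 82.6 and 22.3 FPKM in KO and 58.2, 61.3 and 51.3 FPKM in WT. KO replicate 3 was at 0.27 times KO replicate 2, the widest gap between these libraries among the 91 members. The log2 difference of 0.07 ± 0.19 moved to a range from −0.33 without KO replicate 2 to 0.39 without KO replicate 3. Summed with Rps27, the level was 429.2, 258.8 and 223.8 FPKM in KO and 357.1, 479.4 and 366.3 FPKM in WT. Rps3a2 and Rps3a3, which share 86.4% and 45.4% of their runs with other genes, had means of 11.2 and 6.03 FPKM, or 1.03% and 0.557% of Rps3a1. Rps3a3 was at 5.83, 4.71 and 5.08 FPKM in KO and 7.51, 7.52 and 5.56 FPKM in WT. The log2 difference of Rps3a3 was −0.33 ± 0.27 (adjusted p = 0.679 by edgeR), and that of Rps3a2 was −0.14 ± 0.24.

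The last 4 members were in none of the lists of subunit proteins or paralogs. Rps19bp1 encodes a binding partner of Rps19 and is no part of the ribosome. It was at 10.2, 8.39 and 8.66 FPKM in KO and 8.72, 9.48 and 10.4 FPKM in WT, and its log2 difference was −0.00 ± 0.20. Rpl37rt, a gene related in sequence to Rpl37, was at 31.5, 24.97 and 24.6 FPKM in KO and 28.5, 41.2 and 33.3 FPKM in WT, and its log2 difference was −0.27 ± 0.23 (adjusted p = 0.714 by edgeR). Rpl6l shares 69.4% of its runs with other genes, and 53.7% with Rpl6. It was at 45.8, 35.6 and 40.3 FPKM in KO and 42.6, 51.1 and 41.6 FPKM in WT. The log2 difference of Rpl6l was −0.09 ± 0.18. Rpl32l was at 1.74, 1.75 and 1.59 FPKM in KO and 1.75, 1.52 and 1.35 FPKM in WT. Its log2 difference of 0.17 ± 0.37 was the highest of all members and rested on 35 to 50 counts per library. Just outside the limit was Rps23rg1, at a mean of 0.499 FPKM. It had 148, 4 and 119 counts in KO and 110, 143 and 2 counts in WT, so that KO replicates 2 and 3 differed here as well. The other name below the limit, Rps12l1, had 6 counts in WT replicate 2 and none elsewhere.

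Fau and Rack1, ribosomal proteins with other names, took the same low libraries as the members. Fau, which is processed into a 40S protein, was at 525.5, 349.9 and 341.7 FPKM in KO and 329.3, 530.3 and 413.5 FPKM in WT. Rack1, a scaffold on the 40S subunit, was at 194.9, 154.3 and 154.1 FPKM in KO and 143.9, 205.8 and 182.7 FPKM in WT. The log2 differences were 0.06 ± 0.29 and −0.00 ± 0.25. For both, the lower libraries were again KO replicates 2 and 3 and WT replicate 1.

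The wider translation machinery was compared by lists. None of the 14 translation factors with TOP mRNAs, which include elongation factors and poly(A)-binding protein, was called, with 5 above 0 and 9 below and a median log2 difference of −0.08. Eef1d, an exchange factor for elongation, had the smallest p-value among them, with 16.0 FPKM in KO and 18.8 FPKM in WT on average and a log2 difference of −0.21 ± 0.11 (adjusted p = 0.486 by edgeR). Eif3e, an initiation factor subunit, and Pabpc1, the poly(A)-binding protein, had log2 differences of −0.16 ± 0.13 and −0.16 ± 0.19. The medians of this list over the libraries had the same sign as those of the members in 5 of 6 libraries, at 0.06, −0.12 and −0.14 in KO and −0.10, 0.10 and 0.02 in WT, and in those 5 they were nearer to 0.

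Genes for the assembly of ribosomes took another order. The 42 genes of the ribosome biogenesis list had medians of −0.15, 0.08 and 0.09 in KO and −0.03, −0.05 and 0.06 in WT. None was called, 17 were above 0 and 25 below, and the median log2 difference was −0.03. Gnl3, the nucleolar GTPase nucleostemin, was at 7.77, 9.08 and 9.84 FPKM in KO and 11.2, 10.6 and 11.4 FPKM in WT, with no overlap of the groups, as for 30% of all genes, and a log2 difference of −0.35 ± 0.12 (adjusted p = 0.278 by edgeR). Gar1, of the ribonucleoproteins that modify rRNA, and Gnl3l, a relative of Gnl3, had log2 differences of −0.25 ± 0.18 and 0.19 ± 0.14.

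Of the 14 genes for the control of TOP mRNA translation, 10 were above 0 and 4 below, with a median log2 difference of 0.07. None was called at an adjusted p-value under 0.05, and 2 had an unadjusted p-value under 0.05, a share near the 13.7% of all genes. Mlst8, a subunit of the mTOR complexes, was at 16.5, 16.5 and 16.3 FPKM in KO and 10.8, 13.2 and 12.5 FPKM in WT, with no overlap. The log2 difference of Mlst8 was 0.45 ± 0.15 (adjusted p = 0.252 by edgeR). Akt1, a kinase upstream of mTORC1, was at 51.1, 53.5 and 55.7 FPKM in KO and 38.3, 44.3 and 42.5 FPKM in WT, also with no overlap, as for 30% of all genes, and its log2 difference was 0.36 ± 0.14 (adjusted p = 0.325 by edgeR). Eif4ebp2, a repressor of cap-dependent initiation, had a log2 difference of 0.24 ± 0.16.

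**Figure D5:**
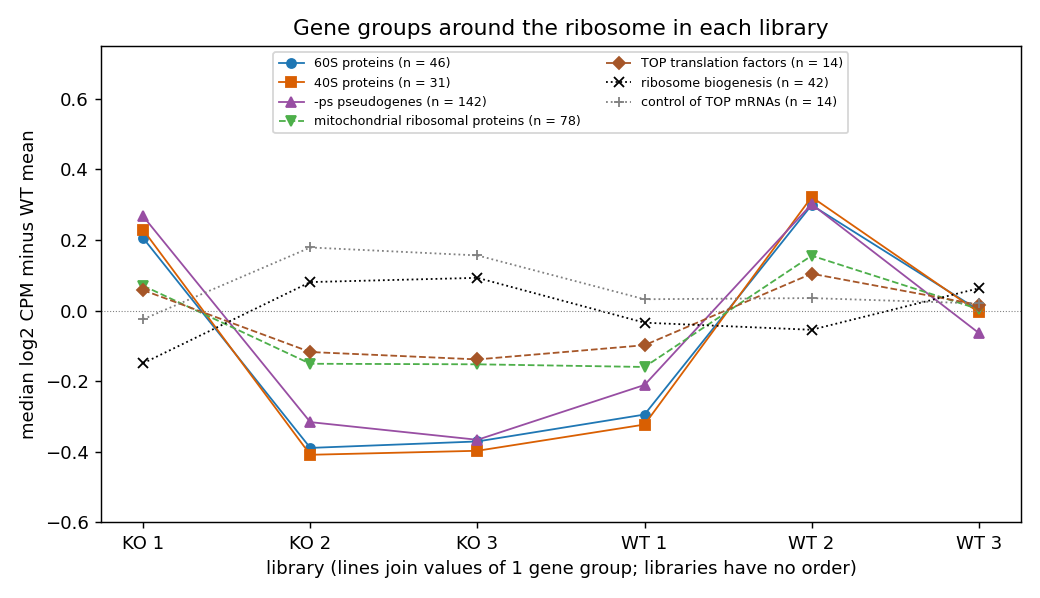
The median log2 CPM minus the WT mean is plotted for each gene group in each of the 6 libraries, with the number of genes tested. The 60S, 40S and pseudogene groups run from −0.41 to 0.32 and take nearly the same order of libraries, whereas ribosome biogenesis lies above 0 in KO replicates 2 and 3 and below 0 in KO replicate 1 and WT replicate 2.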

How the data were processed

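Per the labels, mRNA of articular cartilage was captured with oligo(dT) beads and made into strand-specific libraries with molecular identifiers, sequenced as paired reads on an Illumina NovaSeq. The submitters' processing notes name cutadapt 1.9, HISAT2 2.0.4, UMI-tools, StringTie 1.3.4d, DESeq2 and edgeR. The genome build was not given in the sources used here. The authors deposited 1 table of FPKM values and of estimated counts for each gene and library, and 0 columns of samples were left unused. The deposited counts are whole numbers but pile up at 4 (6596 values, against 4170 at 3 and 2332 at 5), so a count was not taken as 1 read pair. How reads that match several genes were assigned is not stated.

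Groups and replicate numbers came from the sample titles. Tests used edgeR 4.0.16 (R 4.3.3) with TMM scaling on the counts of 15373 genes that averaged 0.5 FPKM or more, and Benjamini-Hochberg adjustment. KO replicates 2 and 3 were merged by averaging (counts were rounded). SE was the absolute log2 difference divided by the square root of F. Alternatives used limma 3.58.1, DESeq2 1.42.0, other scalings and filters, and left-out libraries. Log2 CPM used a prior count of 2. Total counts were 52268311 to 63331135, and a count of 0 would allow up to 0.0574 CPM at a floor of 3 counts, for counting error only. Transcript lengths and 75-base runs were taken from GENCODE vM21, using the longest coding transcript, or the longest where none codes. Start windows were taken from RefSeq.

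The members, gene lists and marker lists were chosen with earlier results of these data known. Named genes were the 6 highest by mean FPKM, the 8 smallest p-values, the 4 highest and 4 lowest log2 differences, all paralogs, members in no list, those nearest the limit of 0.5 FPKM, and up to 3 genes with the smallest p-values in each neighbouring list. Deviations of same-numbered KO and WT libraries from their group means had correlations of −0.145, −0.108 and −0.058. These values can say little about pairing, because KO replicates 2 and 3 were nearly identical. The titles gave only replicate numbers, and the numbers were not taken as pairs.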

Additional observations from a re-analysis of the deposited data

How the results depend on the processing

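In every alternative run, 0 ribosomal protein genes were called, while the number of all genes called was 0 by edgeR on 5 samples, 570 with the 6 libraries as labelled, 879 with DESeq2, 21 with no filter and 0 to 352 with a library or sample left out. Over the left-out libraries (KO replicates 2 and 3 also together), the median log2 difference ran from −0.39 without KO replicate 1 to 0.18 without KO replicates 2 and 3 over the members, with 0.09 without WT replicate 2, from −0.39 to 0.19 for the 60S genes and from −0.44 to 0.21 for the 40S genes. The causes were not tested. With the replicate block on 6 libraries, 0 members and 0 of all genes were called, against 570 of all genes on these libraries without the block. The median log2 difference of the members with the block was −0.19. The difference in the share of summed FPKM was −0.254 percentage points, and −0.610 to 0.136 with a library or sample left out.

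Signs turned for several genes, none of them called. With the 6 libraries as labelled, the log2 difference was −0.066 for Rplp0, −0.021 for Rps27a and −0.011 for Rps4l. With the replicate block it was −0.051 for Rplp0, −0.038 for Rps27a, −0.19 for Rps27rt and −0.016 for Rps4l. With quantile normalization it was −0.12 for Rplp0, −0.025 for Rpl28 and −0.0037 for Rps27rt, and at a minimum of 5 FPKM −0.025 for Rplp0. Rps19bp1 was at 0.0092 with median-of-ratios scaling, 0.0086 with DESeq2 and 0.031 with no filter, where Rps15 was at 0.00086 and Rpl4 at 0.013. With libraries left out, the lowest and highest log2 differences were −0.66 and 0.19 for Rplp1, −0.44 and 0.074 for Rps3a1, −0.24 and 0.24 for Rplp0, −0.46 and 0.31 for Rps15, −0.16 and 0.11 for Rpl4, and −0.39 and 0.20 for Rpl19. They were −0.91 and 0.15 for Rps27, −0.55 and 0.11 for Rpl30, −0.57 and 0.12 for Rpl38, −0.14 and 0.33 for Rpl28, and −0.26 and 0.38 for Rps27a. For the remaining genes they were −0.37 and 0.13 for Rpl36al, −2.62 and 0.92 for Rpl3l, −0.30 and 0.10 for Rps27l, −0.33 and 0.39 for Rps27rt, −0.33 and 0.048 for Rps3a2, −0.17 and 0.26 for Rps4l, −0.29 and 0.10 for Rpl6l, and −0.20 and 0.18 for Rps19bp1. Scaling without the members, added after seeing the data, left the members' median at −0.09. With 2 KO samples, differences of the size of the SE could not be told from 0, and 1 left KO sample was assumed to vary like the WT group.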

Other observations

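Pseudogene rows of ribosomal protein genes took nearly the same order of libraries as the members. Of 252 rows with -ps in the name, 142 had a mean of at least 0.5 FPKM. They summed to 5046, 3692 and 3638 FPKM in KO replicates 1, 2 and 3 and to 3749, 5321 and 4609 FPKM in WT replicates 1, 2 and 3, the share of the library being 0.979% to 1.23%. Their medians on the log2 CPM scale relative to the WT mean were 0.27, −0.32 and −0.37 in KO and −0.21, 0.30 and −0.06 in WT. None was called by edgeR, and 1 had an unadjusted p-value under 0.05. Whether these rows hold reads of their own transcripts was not tested.

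The 78 mitochondrial ribosomal protein genes, which serve the separate ribosome of mitochondria, all passed the limit. Their medians were 0.07, −0.15 and −0.15 in KO and −0.16, 0.16 and 0.00 in WT, with the same sign as the cytosolic genes in 5 of 6 libraries and, in those, closer to 0. The median log2 difference was −0.04, with 31 genes above 0 and 47 below, and edgeR called none, with 1 at an unadjusted p-value under 0.05. Proliferation markers, another group tied to growth, had a median log2 difference of 0.05, with 7 of 12 above 0.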
